A study of Mus musculus with 24 samples.

Results

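This account compares the livers of 3 mice with a combined knockout of NEMO and the JNK kinases in hepatocytes with the livers of 3 mice labelled control, all untreated and 52 weeks old. These 6 livers were chosen by their titles and genotype labels from the 24 livers of the series, and all 18820 genes that could be named on the array were compared. The knockout is labelled NEMO/JNKΔhepa triple knockout. NEMO, whose gene is Ikbkg, is the non-catalytic subunit that the IkB kinase needs to act, and JNK1 and JNK2 are encoded by Mapk8 and Mapk9. Per the labels' protocols the JNK knockout strain is Jnk1LoxP/LoxP /Jnk2−/−, in which Jnk1 is floxed and Jnk2 is absent from every cell. The Cre recombinase was Alb-Cre, whose albumin promoter is active in hepatocytes and in the fetal precursors that also give rise to bile duct cells. The Alb-Cre and the Jnk2-deficient mice were on a C57BL/6 background. The protocols name NEMO∆hepa and NEMOf/f mice as controls of this strain, and the label of the 3 control livers says only that they are control. Livers are numbered by the replicate in their titles. For comparison, 12 further livers came from mice labelled JNKΔhepa double knockout or control, with a labelled duration of 40 days for the carcinogen diethylnitrosamine and of 28 days for bile duct ligation. The ages of those treated mice are not in the labels. The rest of the 24 livers were 3 labelled NEMO knockout and 3 labelled NEMO/JNK1Δhepa double knockout, from mice 8 weeks old. They entered the choice of probe sets and the alternative that fitted all 24 arrays together. In that fit all groups shared 1 estimate of the spread of each gene.

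NEMO is needed for the canonical NF-kB pathway, which keeps hepatocytes alive when inflammatory cytokines act on them. JNK1 and JNK2 are stress kinases that phosphorylate c-Jun, a component of the AP-1 transcription factor, and take part in cell death and in growth. Mice without NEMO in hepatocytes are known to develop chronic hepatitis, fibrosis and liver tumours with age.

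The targeted genes and the tissue label were read first. Ikbkg stood at log2 values of 7.0, 7.41 and 7.48 in the livers labelled control and at 6.47, 6.45 and 6.43 in the knockouts. Mapk8 stood at 6.33, 6.69 and 6.53 in the livers labelled control and at 5.59, 5.58 and 5.78 in the knockouts. Both genes were lower in every knockout liver than in every liver labelled control, and both falls were called. Mapk9 was low in both groups, at 3.28, 3.51 and 2.93 against 2.82, 3.11 and 2.93, so that the livers labelled control did not show a Mapk9 signal that the knockouts had lost. That gene passed the test with each array centred on its median and not otherwise (adjusted p = 0.257 as reported and 0.0132 when centred). The tissue label was borne out by 14 hepatocyte markers, none of which was called in either direction. Their mean log2 level lay between 12.08 and 12.38 in the livers labelled control and between 12.27 and 12.33 in the knockouts. Markers of other cell types did differ in level. The mean of 8 cholangiocyte markers lay between 4.48 and 4.99 in the livers labelled control and between 7.42 and 7.92 in the knockouts, and 8 of 8 were called higher. The mean of 7 B and plasma cell markers was 6.6, 5.39 and 4.54 in the livers labelled control and 7.5, 6.99 and 7.72 in the knockouts. The mean of 9 T and NK cell markers ranged from 3.85 to 4.26 and from 4.61 to 4.85. The means of stellate cell (6.86 to 7.46 against 7.21 to 7.81) and endothelial markers (7.74 to 7.78 against 7.65 to 7.95) overlapped between the groups. Within them calls ran both ways. Of 12 stellate cell markers 3 were called higher and 2 lower, and of 11 endothelial markers 1 was higher and 3 lower. The mean of 4 erythroid markers was lower (5.2 to 5.52 against 4.65 to 4.83), with 2 called lower and 0 higher. In whole liver, fewer cells of a type and less RNA per cell cannot be told apart. Across probe sets, arrays of 1 group correlated with r between 0.979 and 0.9872, and arrays of different groups with r between 0.9587 and 0.9688.

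Of the 18820 genes 2562 were higher in the knockouts (13.6%) and 1486 were lower (7.9%), by limma with Benjamini-Hochberg adjustment over all genes and a threshold of 0.05. Without control liver 3, knockout liver 1 or knockout liver 3 the genes lower numbered 987, 953 and 898. The larger changes were mostly rises. At least 2-fold differences were found for 1051 genes higher and 252 genes lower, and at least 8-fold differences for 52 higher and 13 lower. The median log2 difference over all genes was −0.05. The direction of the calls depended on how the arrays were brought to 1 scale. Of all calls 63.3% were rises on the deposited scale and 46.8% after quantile normalisation over the genes tested, which gave 2122 rises and 2417 falls. When arrays were centred on their medians over the 18820 genes, the median difference over all genes moved to −0.37. There 14.9% of the calls were rises (1570 rises and 8942 falls). The counts below are on the deposited scale, and directions that turn under these scalings are given beside them. An exact permutation test of 3 against 3 livers cannot give a p below 0.1, so that all p-values are those of limma.

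Genes of 4 lists (biliary and mucosal epithelium, macrophages and Kupffer cells, fatty acid and cholesterol metabolism, and male-biased liver genes, 204 measured genes in all) were set aside before the largest changes were chosen. Outside them 2491 genes rose and 1427 fell. The 15 largest rises and 15 largest falls named below had to be called and to show no overlap between the groups. Cyp2s1, a cytochrome P450 found mainly in epithelia outside the liver, read 4.66, 4.71 and 4.81 in the livers labelled control and 9.32, 8.49 and 9.07 in the knockouts. Kcne3, an accessory subunit of epithelial potassium channels, read 4.83, 5.33 and 4.88 against 9.33, 9.02 and 9.17. Plet1, a surface protein of epithelial progenitors, read 5.94, 6.07 and 5.5 against 10.15, 9.47 and 9.83. In each of these genes every knockout liver was far above every liver labelled control, and the knockout livers lay close together. Cyp2s1 was 18.8-fold higher (log2 difference 4.23, SE 0.2, adjusted p = 1.88e-05), Kcne3 17.9-fold (4.16, SE 0.16, 1.51e-05) and Plet1 15.8-fold (3.98, SE 0.21, 2.78e-05). Tmem45b, a membrane protein gene, rose 17.0-fold and Adgrg7, an adhesion G protein-coupled receptor of the intestine, by 3.75 on the log2 scale. Ly6d, a lipid-anchored surface protein, varied more in the livers labelled control (6.56, 7.49 and 5.51) than in the knockouts (10.43, 10.23 and 10.59) and was 14.9-fold higher. Gldn, which encodes the adhesion protein gliomedin, read 3.81, 3.85 and 4.04 against 7.03, 8.9 and 7.46, with knockout liver 2 the highest. Sftpd, a collectin of lung surfactant, rose 12.8-fold, Lgals2, a galectin, 11.3-fold, and Slc51b, a subunit of the basolateral bile acid exporter, 11.0-fold.

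The other 5 of the 15 were immunoglobulin genes. Igkv10-96 read 5.71, 5.14 and 4.27 in the livers labelled control and 9.82, 9.21 and 9.59 in the knockouts, a 22.6-fold difference (4.5, SE 0.32, adjusted p = 7.52e-05). Igkc, the kappa constant region, read 7.52, 5.42 and 4.88 against 9.15, 10.0 and 10.35. Control liver 1 had the highest control level of Igkv10-96, Igkc, Ighm, Ighv1-72 and the fifth gene, a further kappa variable segment. As the choice required, the groups did not overlap in any of them. Variable-region probe sets can bind transcripts of related segments, so that a single segment's rise is uncertain. The mean of the 7 B and plasma cell markers was higher in every knockout liver than in every liver labelled control. Igkc and Ighm are themselves among those markers, so that this mean is not separate from the rises above. Of the 7 markers 4 were called higher and 0 lower. Cd79a (log2 difference 0.76, limma adjusted p = 0.288) and Cd79b (0.67, 0.367) were not called. The part of B and plasma cells in these rises was not tested.

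The 15 largest falls were mostly genes of hepatocyte enzymes and carriers. Raet1e, which encodes a ligand of the NKG2D receptor of NK cells, read 8.52, 9.45 and 9.19 in the livers labelled control and 5.14, 5.3 and 4.28 in the knockouts. It fell by 4.14 on the log2 scale (SE 0.3, 17.7-fold, adjusted p = 8.27e-05). Hsd3b2, of the 3-beta-hydroxysteroid dehydrogenase family, read 8.73, 7.69 and 8.53 against 4.34, 4.87 and 5.23, an 11.3-fold fall. Sult2a8, a sulfotransferase of bile acids, read 10.95, 11.05 and 11.44 against 8.17, 7.51 and 8.56, an 8.39-fold fall. In all 3 genes every knockout liver was below every liver labelled control, as the choice required. Car3, the cytosolic carbonic anhydrase of liver and muscle, started from 12.73, 12.94 and 12.93 and reached 10.33, 10.61 and 10.27 (5.5-fold, adjusted p = 2.92e-05). Cyp8b1, the sterol 12-alpha-hydroxylase that sets the share of cholic acid, read 10.16, 9.72 and 10.02 against 7.17, 8.54 and 6.94, with knockout liver 2 the least reduced. The carboxylesterases Ces3a and Ces1e fell 6.46-fold and 5.86-fold. Acss3, a mitochondrial propionyl-CoA synthetase, fell 6.1-fold, and Them7, of the thioesterase superfamily, 5.05-fold. Keg1, of the glycine acyltransferase family, fell 7.52-fold, with knockout liver 2 (6.95) below the other two (8.27 and 8.46). Slc17a8, a vesicular glutamate transporter, fell 6.97-fold and Slc15a5, of the peptide transporter family, 5.67-fold. The remaining falls were those of Lrat, which esterifies retinol for storage (4.55-fold), Serpina12, the secreted serpin vaspin (4.51-fold), and the pseudogene Serpina4-ps1 (10.1-fold). Of the 30 genes 29 were called under every one of 12 alternative settings. The exception was Serpina4-ps1, which was not called when all 24 arrays were fitted together (adjusted p = 0.0581).

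**Figure D1:**
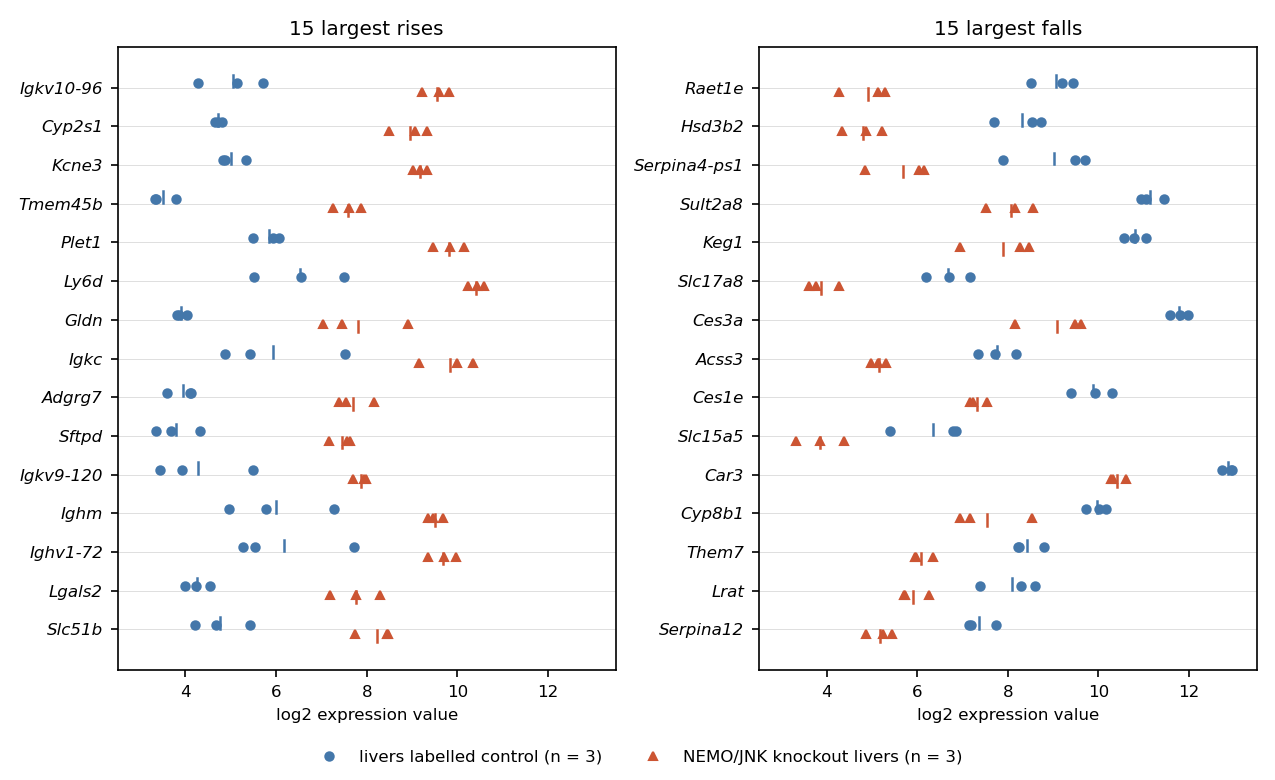
Log2 expression values of the 15 largest rises (left) and the 15 largest falls (right) outside the lists set aside, with 1 point for each liver and a short vertical line at each group mean (n = 3 livers per group). Absence of overlap was a condition for choosing the 30 genes, and the control values of the 5 immunoglobulin genes are spread more widely than their knockout values.

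Promoter windows were searched for the letters of factors known to act in liver, AP-1 and NF-kB among them. Windows of 300 bases, from 250 before to 50 after the start, came from RefSeq on GRCm38.p6. A window was found for 14749 of the 18820 genes (18155 windows). The AP-1 letters TGANTCA, searched on both strands, occurred in 6.74% of all windows, in 7.38% of windows of genes called higher and in 6.6% of those of genes called lower. The HNF4 letters CAAAGTCCA occurred in 0.446%, 0.39% and 1.06%, which for the genes lower was 16 of 1516 windows. The NF-kB letters GGGANNTCC occurred in 4.9%, 5.7% and 4.35%, and the ETS letters CCGGAAG in 12.1%, 9.29% and 12.1%. The NF-Y letters CCAAT occurred in 37.5%, 33.2% and 41.6%, the CEBP letters TTGCNNAA in 9.89%, 9.48% and 10.6%, and the TEAD letters GGAATG in 13.3%, 13.4% and 14.0%. The palindromic HNF1 motif occurred in 1 window, that of a gene called lower. These shares were not tested, and a match is no evidence that a factor binds. The ETS and TEAD letters have GGAA in common, and no motif searched holds another. The windows of 4 of the 15 largest rises with an AP-1 match are printed to show where the match lies, 5′ to 3′ on the strand of the gene, with the match in capitals. They cover chr7:100176420-100176719 (+ strand) for Kcne3, chr9:54286236-54286535 (+ strand) for Gldn, chr9:50494275-50494574 (+ strand) for Plet1 and chr9:65422724-65423023 (− strand) for Slc51b.
Kcne3: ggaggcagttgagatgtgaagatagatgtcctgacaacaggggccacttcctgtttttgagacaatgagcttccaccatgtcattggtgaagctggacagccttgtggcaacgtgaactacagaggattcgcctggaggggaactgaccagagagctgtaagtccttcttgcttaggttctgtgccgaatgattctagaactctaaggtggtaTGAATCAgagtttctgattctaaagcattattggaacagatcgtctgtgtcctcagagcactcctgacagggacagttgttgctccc
Gldn: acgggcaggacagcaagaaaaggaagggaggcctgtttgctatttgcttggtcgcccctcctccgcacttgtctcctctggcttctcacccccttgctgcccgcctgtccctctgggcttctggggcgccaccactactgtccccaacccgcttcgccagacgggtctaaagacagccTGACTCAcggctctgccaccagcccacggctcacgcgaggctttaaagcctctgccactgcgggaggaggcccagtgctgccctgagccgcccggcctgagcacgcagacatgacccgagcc
Plet1: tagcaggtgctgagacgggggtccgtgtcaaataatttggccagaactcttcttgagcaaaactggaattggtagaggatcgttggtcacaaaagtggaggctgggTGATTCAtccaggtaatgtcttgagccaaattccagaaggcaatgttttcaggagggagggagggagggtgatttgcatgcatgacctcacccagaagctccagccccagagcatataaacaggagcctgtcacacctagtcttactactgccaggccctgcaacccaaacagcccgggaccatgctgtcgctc
Slc51b: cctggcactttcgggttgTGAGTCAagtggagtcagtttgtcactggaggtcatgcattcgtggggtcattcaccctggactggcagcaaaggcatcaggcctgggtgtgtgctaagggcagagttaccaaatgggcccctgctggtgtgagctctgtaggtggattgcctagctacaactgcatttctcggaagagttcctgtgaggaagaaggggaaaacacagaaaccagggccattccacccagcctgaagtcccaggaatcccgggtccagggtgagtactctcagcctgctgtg

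The match began at −37 in Kcne3, −72 in Gldn, −144 in Plet1 and −232 in Slc51b relative to the annotated start, so that it had no common place. Among the genes that fell, Cyp8b1 held the HNF4 letters at −67, and Aadat, an aminoadipate aminotransferase of lysine and tryptophan breakdown, held them at −72. Aadat was chosen after its values were seen. It read 8.55, 8.9 and 8.94 in the livers labelled control and 7.42, 7.57 and 7.69 in the knockouts (fall 2.35-fold, adjusted p = 0.00069). Both windows are printed with the match in capitals, which in Aadat lies on the opposite strand, at chr9:121916256-121916555 (− strand) for Cyp8b1 and chr8:60505874-60506173 (+ strand) for Aadat.
Cyp8b1: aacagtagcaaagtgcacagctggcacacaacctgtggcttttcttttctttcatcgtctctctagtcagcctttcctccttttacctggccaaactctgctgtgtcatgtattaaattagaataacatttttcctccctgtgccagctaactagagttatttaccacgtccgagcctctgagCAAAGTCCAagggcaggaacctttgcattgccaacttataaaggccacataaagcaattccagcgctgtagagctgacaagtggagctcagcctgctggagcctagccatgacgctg
Aadat: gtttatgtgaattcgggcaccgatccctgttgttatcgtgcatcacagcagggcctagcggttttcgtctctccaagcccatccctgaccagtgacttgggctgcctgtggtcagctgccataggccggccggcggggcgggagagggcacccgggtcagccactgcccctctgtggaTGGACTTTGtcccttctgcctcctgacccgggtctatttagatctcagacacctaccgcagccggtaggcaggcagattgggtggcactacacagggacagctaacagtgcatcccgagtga

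Beyond the largest changes, 32 lists of related genes were followed. Their counts stand beside 13.6% of all genes called higher and 7.9% called lower. Enzymes of amino acid breakdown, which feed carbon and nitrogen from protein into the hepatocyte's own metabolism, fell in 21 of 45 members and rose in 2, with a list median of −0.49 beside −0.05 over all genes. Of the 21 falls 16 were called in every setting tried, and of the 2 rises 0. Hao1, which oxidises glycolate in peroxisomes, read 9.67, 9.69 and 9.79 in the livers labelled control and 7.62, 7.76 and 7.64 in the knockouts, a fall of 4.12-fold (SE 0.11 log2, adjusted p = 2.92e-05). Mccc2, a subunit of the carboxylase of leucine breakdown, fell 2.49-fold, and Pcca, a subunit of propionyl-CoA carboxylase, 2.48-fold. The members called higher were Got1, a transaminase of aspartate (1.76-fold, adjusted p = 0.0431, chosen after its values were seen), and Acmsd, which diverts tryptophan carbon away from NAD synthesis. Acmsd read 6.39, 7.74 and 7.91 in the livers labelled control and 9.22, 9.42 and 8.39 in the knockouts, and its call as higher was lost without knockout liver 1 (adjusted p = 0.0608) or knockout liver 2 (0.0575). Of 11 genes of urea synthesis and ammonia handling 3 fell and 0 rose, among them the urea cycle enzyme Otc (1.84-fold) and the ammonia channel Rhbg (3.02-fold). Folate and methionine enzymes fell in 11 of 27 and rose in 2, with a median of −0.34. Fpgs, which traps folate in cells by adding glutamates, fell 2.29-fold, and Shmt1, which moves carbon from serine to folate, 1.88-fold. Mthfd1l, the mitochondrial folate enzyme of fetal and growing cells, rose 2.41-fold. The 11 falls became 3 without control liver 3, 6 without knockout liver 1, 7 without knockout liver 2 and 5 without knockout liver 3.

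Retinoid and steroid metabolism changed in both directions within the same lists. Of 32 vitamin A and retinoid genes 11 fell and 5 rose (median −0.33). Retsat, which saturates retinol, fell from 10.33, 10.46 and 10.44 to 8.76, 8.07 and 8.64. The fall of Lrat was larger still. Against these, Aldh1a2, which makes retinoic acid, rose from 3.69, 3.58 and 3.33 to 6.73, 6.12 and 5.95 (6.64-fold, adjusted p = 9.11e-05). Rdh9, a retinol dehydrogenase, rose 5.31-fold. The called changes in this list thus ran in both directions, and no retinoid was measured. Of 34 genes of steroid and thyroid hormone metabolism 13 fell and 2 rose (median −0.4). Hsd17b2, which inactivates oestradiol and testosterone, fell 3.41-fold. Hsd17b6, which acts on androgen metabolites, rose from 8.85, 9.65 and 9.61 to 11.56, 11.65 and 11.65 (4.77-fold, adjusted p = 0.000227). Of 58 aldehyde, alcohol and aldo-keto oxidoreductases 19 fell and 6 rose (median −0.26). Aldh5a1, of GABA breakdown, fell 2.81-fold. Fmo2, a flavin monooxygenase and so of none of the classes that name the list, rose 5.61-fold, from 6.38, 6.88 and 6.75 to 9.04, 9.11 and 9.32. The mitochondrial respiratory chain fell in 22 of 82 members and rose in 0, with a median of −0.3. The 22 falls ranged from 1.32-fold to 1.94-fold. The largest, that of Cox7a1, a subunit of complex IV, was not called when all 24 arrays were fitted together (adjusted p = 0.134). Ndufb7, of complex I, read 7.61, 7.66 and 7.69 against 6.92, 7.04 and 7.02, and Sdhb, of complex II, fell 1.54-fold. The 22 became 37 without control liver 1, 14 without control liver 2, 12 without control liver 3, 11 without knockout liver 1 and 12 without knockout liver 3.

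Genes of growth factor signalling were called in both directions. Of 27 genes of the insulin-like growth factor axis 9 rose and 3 fell (median 0.19), and with arrays centred 6 rose and 10 fell. Igf1r, the receptor that adult hepatocytes hardly express, read 5.03, 5.28 and 5.04 in the livers labelled control and 8.04, 7.72 and 7.45 in the knockouts (a 6.15-fold rise with SE 0.16 on the log2 scale, adjusted p = 4.36e-05). The growth hormone receptor Ghr read 10.44, 10.48 and 10.65 against 9.3, 9.1 and 9.25 (2.47-fold lower). Igfals, which stabilises IGF1 in plasma, fell 2.61-fold. These 3 genes showed no overlap between the groups and were called in every setting. Igfbp3, a binding protein made largely by cells other than hepatocytes, rose 3.04-fold. Ccnd1, the G1 cyclin, was chosen after its values were seen and rose 8.18-fold, from 7.06, 7.1 and 6.34 to 9.72, 10.02 and 9.87. Wnt and Hedgehog genes rose in 12 of 67 (17.9%) and fell in 4 (5.97%), and with arrays centred 10 rose and 30 fell. Without knockout liver 3 the 4 falls became 1, and without knockout liver 2 they became 2. Ihh, a Hedgehog ligand, rose 2.52-fold, Wnt7b, a Wnt ligand, 2.09-fold, and the Wnt antagonists Sfrp1 and Dkk3 3.24-fold and 2.46-fold. Gas1, a Hedgehog co-receptor, fell 2.1-fold.

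Genes of the actin cytoskeleton had the largest share of rises among the lists. Of 69 members 32 rose and 2 fell, with a median of 0.37. Of 22 lists with more rises than falls, 2 kept more rises with arrays centred, this list (22 and 9 there) and the S100 and annexin list (9 and 7 there, and 9 of 28 higher with 0 lower on the deposited scale). Ezr, which ties actin to the membrane of microvilli, read 6.54, 6.65 and 6.14 in the livers labelled control and 9.7, 8.99 and 9.29 in the knockouts (7.4-fold, adjusted p = 6.88e-05). Pls1, an actin bundler of microvilli, rose 7.79-fold from 4.29, 5.31 and 3.79 to 7.14, 7.67 and 7.46. Flna, which cross-links actin in most cells, rose 2.75-fold. The rises thus covered genes of brush borders as well as a gene of general use. Palld, an actin-bundling scaffold, was the larger of the 2 falls (1.65-fold). Anxa13, an annexin of intestinal epithelium, read 4.49, 4.41 and 4.96 against 8.39, 7.45 and 8.01 (10.1-fold), and S100a6 rose 5.54-fold. Kinesins and dyneins rose in 18 of 60 and fell in 3, and with arrays centred 15 rose and 17 fell. The 3 became 1 without control liver 2, knockout liver 1 or knockout liver 3. Dync2h1, the motor that returns cargo in cilia, rose 2.01-fold, and Kif12, a kinesin of bile duct and kidney epithelium, 2.8-fold. Of 17 tubulins 5 rose and 0 fell, and with arrays centred 3 rose and 3 fell. The 5 became 3 without control liver 1, control liver 3, knockout liver 1 or knockout liver 3. The mean of the cholangiocyte markers was higher in the same livers. That of 18 markers of gastrointestinal epithelium was also higher (3.89 to 4.07 against 4.53 to 4.74, with 6 called higher and 1 lower). The median difference of these 18 was −0.16, so that the higher mean came from part of them. The part of either marker set in the rises of these lists was not tested.

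Surface transport changed without a common direction. Of 323 solute carriers 57 rose (17.6%) and 35 fell (10.8%), beside 13.6% and 7.9% of all genes. Their median of −0.05 was equal to that of all genes, and with arrays centred 42 rose and 152 fell. The falls numbered 22 without control liver 3, without knockout liver 1 or without knockout liver 3. Slc44a4, a choline and thiamine pyrophosphate carrier, read 3.42, 3.28 and 3.3 in the livers labelled control and 5.44, 5.52 and 5.71 in the knockouts (4.67-fold). Slc25a24, a calcium-regulated ATP carrier of mitochondria, rose 3.94-fold. Ion channels rose in 40 of 218 and fell in 11 (median −0.06), against 27 and 109 with arrays centred. The 11 became 7 without control liver 2 or knockout liver 2 and 6 without knockout liver 1 or knockout liver 3. Kcnk1, a two-pore potassium channel, rose 4.97-fold from 4.17, 3.97 and 4.11 to 6.58, 6.28 and 6.34. Water and acid-base transport rose in 17 of 72 and fell in 6, against 15 and 31 when centred, with Slc12a8 4.01-fold higher and Car3 lower. Abcb1a, a drug exporter of the canalicular membrane and of epithelia, was chosen after its values were seen. It read 5.01, 5.83 and 5.29 against 8.82, 8.64 and 8.49 (a 9.66-fold rise with SE 0.2 on the log2 scale, adjusted p = 4.35e-05).

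Adhesion and guidance genes rose more often than they fell on the deposited scale, as did all genes (2562 against 1486). Cadherins, desmosome proteins and connexins rose in 19 of 70 and fell in 6, and with arrays centred 12 rose and 30 fell. The 19 became 12 without knockout liver 3, and the 6 became 3 without control liver 3 or knockout liver 1. Cdh1, E-cadherin, read 6.01, 7.05 and 6.94 in the livers labelled control and 9.7, 9.22 and 9.34 in the knockouts (6.75-fold), and Cdhr2, a protocadherin of brush borders, rose 4.88-fold. Axon guidance genes, which also steer epithelial and vascular cells, rose in 19 of 72 and fell in 5, against 14 and 21 when centred. The 5 became 3 without control liver 2 or knockout liver 1 and 2 without knockout liver 2 or knockout liver 3. Sema3c, a secreted semaphorin, rose from 3.94, 4.66 and 4.62 to 7.6, 6.4 and 7.17 (6.29-fold), Sema3e 4.51-fold, and the netrin receptor Unc5b 3.22-fold. Plxnb1, a semaphorin receptor, rose 2.74-fold. Enzymes that build glycans rose in 21 of 114 and fell in 8 (median 0.12), against 15 and 43 when centred. The 8 became 4 without control liver 2 or knockout liver 3 and 5 without control liver 3, knockout liver 1 or knockout liver 2. B4galt6, which makes lactosylceramide, read 4.71, 5.31 and 4.65 against 7.84, 8.04 and 7.8 (8.02-fold, adjusted p = 4.01e-05). Mgat4a, which branches N-glycans, rose 6.2-fold, and Galnt3, which starts mucin-type glycans, 3.66-fold. St6galnac6, a sialyltransferase, fell 2.24-fold.

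Transcription factors of development were called at about the share of all genes, with 23 of 207 higher (11.1%) and 18 lower (8.7%). Klf5, a factor of epithelial progenitors, read 3.97, 4.13 and 4.23 in the livers labelled control and 7.13, 6.49 and 7.03 in the knockouts (6.85-fold). Grhl2, a regulator of epithelial junctions, rose 2.77-fold from 3.52, 3.57 and 3.51 to 4.99, 4.94 and 5.08, and the Notch-responsive Hey1 rose 2.19-fold. Klf12 fell 2.07-fold. These 4 calls were made in every setting. The 18 falls became 11 without control liver 3 or knockout liver 2, 8 without knockout liver 1 and 9 without knockout liver 3. With quantile normalisation the list had 19 rises and 28 falls, and with arrays centred 18 and 116. Sensory receptors, which liver is not known to use, gave 0 rises and 34 falls among 1195 (2.85%), below the share of all genes. The 34 became 22 without knockout liver 2 and 8 without knockout liver 1 or without knockout liver 3, and 819 with arrays centred. Their median level was 2.46 and 2.31 in the groups, near the bottom of the scale.

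Genes of immune signalling outside the macrophage list rose in part. Interleukins and their receptors rose in 15 of 76 and fell in 4, against 14 and 28 with arrays centred. The 4 became 2 without control liver 3 or knockout liver 3. Il22ra1, the IL-22 receptor chain of epithelia and hepatocytes, read 6.08, 6.31 and 6.04 in the livers labelled control and 8.05, 7.68 and 7.79 in the knockouts (3.24-fold). Il1rap, the shared IL-1 receptor chain, fell from 8.89, 8.82 and 9.12 to 7.83, 7.42 and 7.45 (2.59-fold). Il10rb, a chain shared by the IL-10 and IL-22 receptors, rose 2.19-fold. Il22ra1 and Il10rb, the chains of the IL-22 receptor, were thus higher in every knockout liver. Enzymes and receptors of eicosanoids rose in 12 of 40 and fell in 3, against 8 and 13 when centred, and the 12 became 7 without knockout liver 3. Pla2g7, the plasma PAF acetylhydrolase of macrophages, rose 4.8-fold, Alox5ap, needed for leukotriene synthesis, 3.38-fold, and Tbxas1, thromboxane synthase, 2.47-fold. Ephx2, soluble epoxide hydrolase, fell 1.98-fold and read 10.96, 11.02 and 11.08 against 10.03, 10.04 and 10.04. Lysosome genes rose in 14 of 50 and fell in 2, against 4 and 14 when centred. The 14 became 8 without control liver 1 or control liver 3, 6 without knockout liver 2 and 7 without knockout liver 3. Cd63, a membrane protein of lysosomes and exosomes, rose 4.37-fold and Ctss, a protease of antigen-presenting cells, 3.5-fold. Among C-type lectins, Siglecs and galectins 11 of 65 rose (16.9%) and 9 fell (13.8%), against 8 and 25 when centred. The 9 became 5 without control liver 1 and 4 without knockout liver 1, 2 or 3. Colec10, a collectin, fell from 7.53, 7.35 and 7.37 to 5.25, 5.37 and 5.36, and Lgals3 rose 4.3-fold. Of 36 macrophage and Kupffer cell genes 26 were higher and 1 was lower in the same livers, and the means of T and NK cell and of B and plasma cell markers were higher. Their part in these rises was not tested.

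Cytosolic ribosomal proteins gave 14 rises and 0 falls among 72, with a median of 0.26 and differences that were small for every gene. Rpl35 read 10.06, 10.04 and 10.06 in the livers labelled control and 10.54, 10.56 and 10.54 in the knockouts (1.4-fold). The groups did not overlap and were higher in the knockouts in 43 of 72 genes, where 20.9% of all genes did so (20.3% were apart in the other direction). The count of 14 fell to 9, 5 and 6 without control livers 1, 2 and 3 and to 5, 6 and 4 without knockout livers 1, 2 and 3. It was 31 after quantile normalisation, and 0 with arrays centred, where 5 fell. For 6 further lists the shares are given beside 13.6% higher and 7.9% lower for all genes. Of 47 proteasome genes 1 rose and 2 fell (2.13% and 4.26%), and of 44 histone genes 6 rose and 1 fell (13.6% and 2.27%). Of 74 small GTPases of vesicle traffic 11 rose and 3 fell (14.9% and 4.05%). Of 22 vacuolar proton ATPase genes 3 rose and 0 fell (13.6% and 0%). Of 47 serpins 4 rose and 6 fell (8.51% and 12.8%), and of 34 endocrine genes 4 rose and 3 fell (11.8% and 8.82%). Rises of histone, small GTPase and vacuolar ATPase genes were thus at about the share of all genes. With arrays centred, falls outnumbered rises in each of the 6 lists. Quantile normalisation gave 4 rises and 3 falls for serpins and 2 rises and 4 falls for endocrine genes, so that both turned. The 6 serpin falls also became 3, beside 4 rises, without control liver 1, control liver 2, knockout liver 1 or knockout liver 3. The 6 histone rises became 1 without control liver 3 or knockout liver 1 and 3 without control liver 2 or knockout liver 3. The 4 endocrine rises became 0 without control liver 3 or knockout liver 1, 1 without control liver 2 and 2 without control liver 1 or knockout liver 3. Of 14 clock genes 5 rose and 5 fell. Arntl, the positive arm of the clock, read 7.34, 7.56 and 7.48 against 6.32, 6.04 and 5.94, and Nfil3 fell by 2.05, while Per3 rose from 4.27, 4.54 and 4.51 to 5.32, 6.13 and 6.11. These clock genes were named after their values were seen. The hour of tissue collection is not in the labels, and its part in these differences was not tested.

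**Figure D2:**
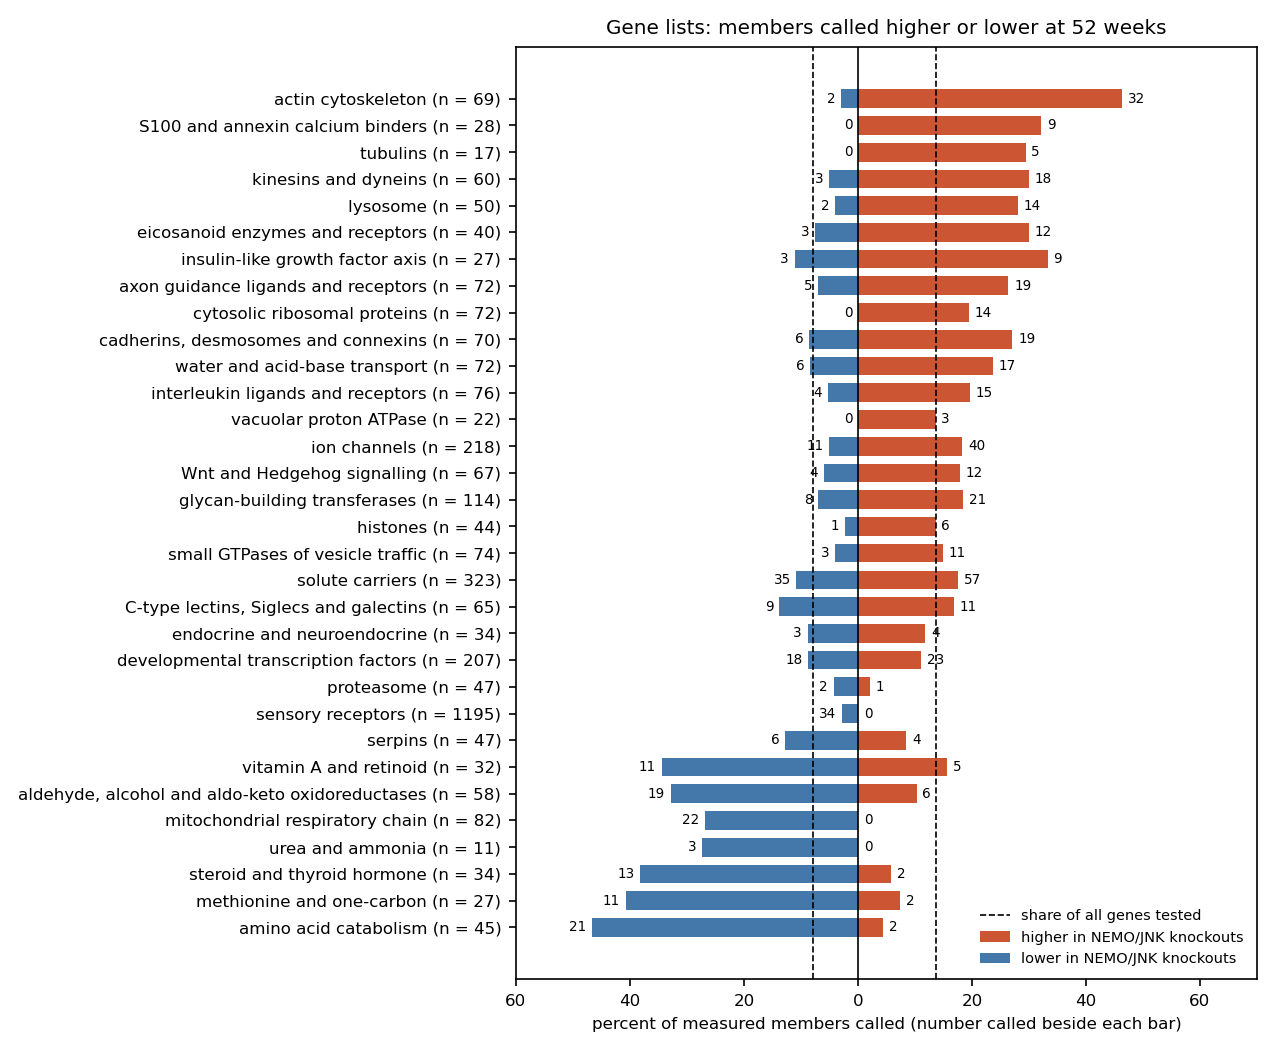
Share of the measured members of 32 gene lists called higher (right) or lower (left) in the 3 NEMO/JNK knockout livers against the 3 livers labelled control, in percent, with the number called beside each bar and dashed lines at 13.6% and 7.9% for all genes tested. The actin list (32 higher) and the amino acid list (21 lower) stand at the ends. With each array centred on its median, rises outnumbered falls in 2 of the 22 lists that lean to the right here.

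Symbol families were formed from the letters with which gene symbols begin. The members named from them were chosen after their values were seen. There were 330 families with at least 8 measured genes. The largest share of rises was that of the kappa variable segments (8 of 12, median 2.85) and, equally, of the Toll-like receptors, with 8 of 12 higher and 1 lower (median 0.89). The 8 Toll-like receptors became 5 without knockout liver 3 or with all 24 arrays fitted together, and 3 with dim genes filtered out. Of the 9 calls, 3 were made in every setting. Tlr4, the receptor of bacterial lipopolysaccharide, read 4.27, 4.55 and 4.37 in the livers labelled control and 5.44, 5.45 and 5.69 in the knockouts (2.18-fold, adjusted p = 0.000671). Tlr13, a receptor of bacterial ribosomal RNA, rose 3.28-fold and Tlr7, of single-stranded RNA, 2.82-fold. Tlr5, the flagellin receptor, went the other way at 7.39, 7.99 and 7.35 against 7.11, 6.59 and 6.49, a call lost without control liver 2 (adjusted p = 0.0612), knockout liver 2 (0.0696) or knockout liver 3 (0.0902). Among colony-stimulating factors and their receptors 5 of 8 rose, all of them receptor genes, such as Csf2rb (2.68-fold) and Csf2rb2 (3.93-fold). The factors Csf1, Csf2 and Csf3 were not called (log2 differences 0.37, −0.26 and −0.03). Of the 5 calls 3 were made in every setting. Of 9 beta integrins 6 rose and 0 fell; the family of 11 symbols in the plot also holds 2 integrin-binding proteins, Itgb1bp1 and Itgb1bp2. Itgb6, of the epithelial integrin that activates TGF-beta, read 2.9, 2.79 and 2.93 against 4.59, 4.4 and 5.11, and Itgb4, of hemidesmosomes, rose 4.02-fold. Myosins rose in 12 of 23 and fell in 0, led by Myo15b (5.61-fold) and Myo5c (4.13-fold). Semaphorins rose in 10 of 20 and fell in 1. With arrays centred, 9 myosins rose and 5 fell, and 7 semaphorins rose and 3 fell.

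Genes of cilia rose in 2 of these families. Intraflagellar transport genes, which carry cargo along cilia, rose in 7 of 14 and fell in 0, and Bbs genes, of the complex that moves membrane proteins through cilia, in 5 of 8. The 5 became 3 without knockout liver 3. Ift57 read 3.96, 4.55 and 4.15 in the livers labelled control and 5.74, 5.59 and 5.54 in the knockouts (2.65-fold, adjusted p = 0.000671), and Bbs2 rose 1.69-fold. The Bbs count was 1 higher and 1 lower both after quantile normalisation and with arrays centred. The Ift counts there were 5 higher and 2 lower, and 4 higher and 2 lower. Hepatocytes carry no primary cilium and bile duct cells do, and cholangiocyte markers were higher in the same livers. Their part in these rises was not tested.

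Genes with Ugt symbols, most of them UDP-glucuronosyltransferases of steroids and drugs, fell in 7 of 10 and rose in 1. The 10 were Ugt2, Ugt3 and Ugt8 genes, with no Ugt1a gene among them. The gene that rose was Ugt8a, which makes galactosylceramide and read 3.61, 3.8 and 3.71 against 5.94, 5.69 and 5.97 (4.46-fold higher). Carboxylesterases fell in 8 of 16 and rose in 0 (median −0.64), with Ces1f 16.2-fold lower. Ces1f stood on the list of male-biased genes. Aldo-keto reductases fell in 7 of 15 and rose in 2, and the 2 rises were those of Akr1b8 (3.23-fold) and Akr1b10 (3.17-fold), while Akr1c12 fell 2.69-fold. Genes of peroxisome formation fell in 6 of 14 and rose in 0, among them Pex11a (2.26-fold) and Pex11g (2.03-fold). Hydroxysteroid dehydrogenases fell in 8 of 19, complex I subunits of the Ndufb series in 5 of 10 and N-acetyltransferases in 4 of 10. The 6 falls of Pex genes became 3 without control liver 2, control liver 3, knockout liver 1 or knockout liver 2, and the 5 of Ndufb genes became 3 without control liver 3, knockout liver 1 or knockout liver 2. Falls in all 7 of these families were as many or more with arrays centred, where falls of all genes went from 1486 to 8942, so that this is no separate support. With all 24 arrays fitted together 4 Ugt, 6 Ces, 6 Akr and 3 Nat genes fell. The Pex, Hsd and Ndufb counts stayed at 6, 8 and 5 there. Ugt, Ces, Akr1c and Hsd3b genes have close copies whose probes can share transcripts, so that the fall of a single copy is uncertain.

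**Figure D3:**
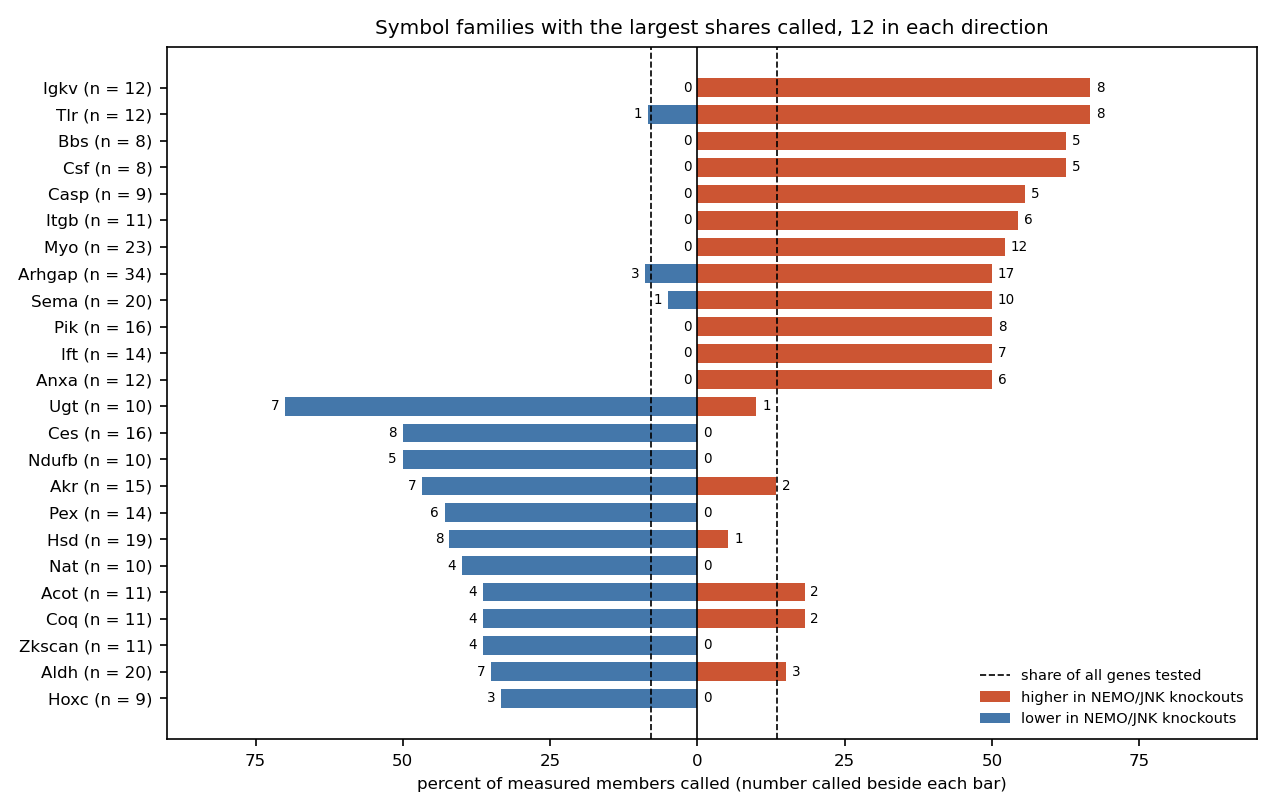
Share of the measured members called higher (right) or lower (left) in the NEMO/JNK knockout livers (n = 3) against livers labelled control (n = 3), in percent, for the 12 symbol families with the largest share in each direction among 330 families, with the number called beside each bar. Dashed lines mark 13.6% and 7.9%, the shares of all genes tested. With arrays centred the Bbs family had 1 member higher and 1 lower.

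Runs of neighbouring genes called in 1 direction were also counted. Along the chromosomes of GRCm38.p6 there were 26 runs of at least 4 adjacent measured genes all called higher and 5 runs all called lower. Of all genes 13.6% were called higher and 7.9% lower. How many runs these shares would give without any link between neighbours was not tested. The longest runs held 7 genes. The run of lower genes was the Cyp2d cluster at chr15:82402845-82764122, with a median of −1.57. There Cyp2d40 fell from 7.39, 8.04 and 7.83 to 5.61, 5.8 and 5.46 and Cyp2d13 from 10.21, 9.82 and 10.38 to 8.2, 7.94 and 9.02. Cyp2d9, on the list of male-biased genes, lay in the same run. The smallest fall was that of Cyp2d12 (1.34-fold), which read close to the bottom of the scale and was lost without control liver 1 (adjusted p = 0.0529), control liver 3 (0.0863), knockout liver 1 (0.0941) or knockout liver 3 (0.101). The higher run of 7 reached from Apobec3 to Mgat3 at chr15:79892058-80215519 (median 0.62) and joined genes of no common family. Runs of 5 lower genes lay in the Mup cluster on chromosome 4 and the Ugt2b cluster at chr5:87065927-87424203 (median −0.91). Close copies within the Cyp2d, Mup and Ugt2b clusters can share probes, so that their members are not independent. By whole chromosome, the shares called were highest for rises on chromosome 15 (142 of 711 genes) and for falls on chromosome 13 (99 of 705, 14.0%). Relative to the median of all genes, chromosome 15 stood at 0.16, 0.07 and 0.09 in the 3 knockout livers and chromosome 13 at −0.1, −0.09 and −0.08. These shifts are small beside the spread of single genes.

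MicroRNA genes were read through their precursors, since the array does not measure mature miRNAs. Of 306 measured miRNA genes 3 were higher and 14 lower, with a median of −0.16, where 13.6% and 7.9% of all genes were called. Of the 17 called, 9 had both group means below a log2 value of 5. Those called in every setting were Mir107, Mir505 and Mir568, so that none of the 3 rises was. Mir675, which lies within the imprinted H19 gene, read 4.71, 4.86 and 5.47 in the livers labelled control and 7.65, 10.92 and 7.09 in the knockouts. It was 11.6-fold higher on average (3.54, SE 0.83, adjusted p = 0.0166), with knockout liver 2 far above the other two. The call was lost without control liver 1 (adjusted p = 0.064). Mir107 read 5.51, 5.64 and 6.74 against 4.41, 4.05 and 4.46 (3.15-fold lower), and its host Pank1, which starts coenzyme A synthesis, fell 2.07-fold. Mir122, the most abundant miRNA of hepatocytes, fell from 6.08, 6.75 and 7.17 to 5.36, 5.27 and 5.73. The call of Mir122 missed the threshold when all 24 arrays were fitted together (adjusted p = 0.0501). Mir505 (1.84-fold) and Mir568 (1.86-fold) were lower and were called in every setting, as was Mir107. The 5′ and 3′ mature sequences that RefSeq gives for the genes called in every setting and for Mir675, the largest change, are printed with the seed, bases 2 to 8, in capitals. Mir107 lies on chromosome 19, Mir505 on chromosome X, Mir568 on chromosome 16 and Mir675 on chromosome 7. No seed is shared among the printed sequences.
mmu-miR-107-3p: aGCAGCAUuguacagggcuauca
mmu-miR-107-5p: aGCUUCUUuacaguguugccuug
mmu-miR-505-3p: cGUCAACAcuugcugguuuucu
mmu-miR-505-5p: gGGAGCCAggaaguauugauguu
mmu-miR-568: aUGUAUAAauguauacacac
mmu-miR-675-3p: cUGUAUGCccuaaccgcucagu
mmu-miR-675-5p: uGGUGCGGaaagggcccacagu

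The 3 knockout livers were not alike in every gene. Among called genes, the range of the knockout values was widest for Mir675 (3.83), followed by Psca (3.33) and Gpc3 (2.48), and these genes are named for that range. Psca, a surface protein of prostate and stomach epithelium, read 8.04, 4.71 and 5.73 against 3.49, 3.87 and 3.78. Its call was lost without control liver 1 (adjusted p = 0.103), control liver 2 (0.0643), control liver 3 (0.0784) or knockout liver 3 (0.0625), and when all 24 arrays were fitted together (0.225). Gpc3, a glypican used as a marker of liver cancer, read 5.9, 8.38 and 7.09 against 3.78, 4.45 and 3.9, and was not called when all 24 arrays were fitted together (adjusted p = 0.0999). Mir675, Gpc3 and Gldn were highest in knockout liver 2, whereas Psca and Slit2 (5.82, 3.62 and 4.84) were highest in replicate 1 and Gpx2 (5.53, 6.02 and 7.31) in replicate 3. Thus no knockout liver was the highest in all of them. Slit2 was not called without control liver 1 (adjusted p = 0.0576), control liver 3 (0.0671) or knockout liver 3 (0.0664). Without control liver 2 it lay at the threshold (adjusted p = 0.05).

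**Figure D4:**
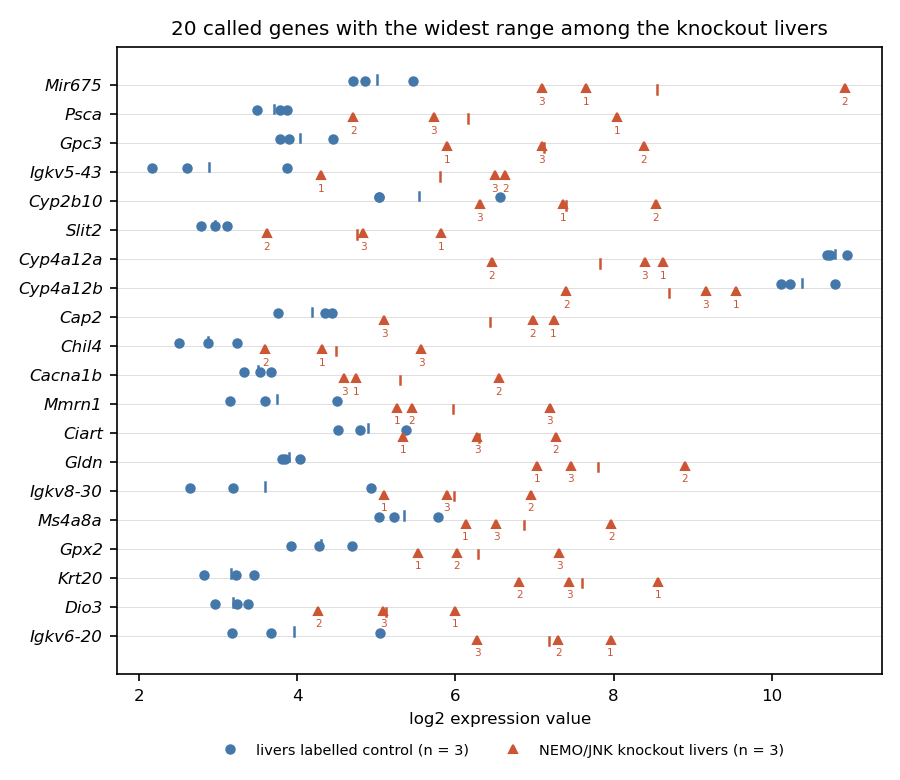
Log2 expression values of the 20 called genes with the widest range among the 3 NEMO/JNK knockout livers (triangles, numbered by replicate), beside the 3 livers labelled control (circles), with a short vertical line at each group mean. Mir675 spans 7.09 to 10.92 in the knockouts, and the order of the replicates changes from gene to gene.

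The last comparison asked whether the 52-week differences departed, sign included, from those seen when JNK alone was removed. An opposite JNK difference after injury also adds to a departure, so that a departure does not show that the 52-week difference was the larger. The mean of the JNK differences after diethylnitrosamine and after bile duct ligation was subtracted from the 52-week difference, in 1 limma fit over 18 livers that share no control. The comparison joins removal of NEMO with age and with the absence of an acute injury, and these cannot be told apart. Liver 3 of the JNK knockouts given diethylnitrosamine stood apart in its sex chromosome genes. Its Xist, the RNA of the inactive X chromosome, read 10.38 and its Y-linked Eif2s3y 2.8, whereas in the other 17 livers Xist lay between 2.35 and 3.87 and Eif2s3y between 7.01 and 7.96. The sex of the mice is not in the labels. Without this liver 1373 genes departed upward and 719 downward, beside 1504 and 841 with it, and all other values here include it unless said otherwise. The JNK comparison after diethylnitrosamine had 0 genes called by limma, with 781 at an unadjusted p under 0.05, and that after ligation 150 higher and 105 lower. The 52-week difference departed upward for 1504 genes (7.99%) and downward for 841 (4.47%). The counts were 1001 and 471 without control liver 3 and 2317 and 1363 without liver 2 of the JNK knockouts given diethylnitrosamine. The downward count was 507, 491 and 548 without knockout livers 1, 2 and 3. The departure contains the 52-week difference by which the 30 genes and the clock genes were picked, so that the counts of them that follow are descriptions. Of the 30 largest changes 26 departed, and 15 of the 26 did so in all 23 alternative settings of this contrast. Without liver 3 of the treated JNK knockouts 25 of the 26 did so, the loss being Kcne3 (adjusted p = 0.0542). Ly6d differed by −1.31 after diethylnitrosamine and by −0.39 after ligation, beside 3.9 at 52 weeks. Sult2a8 differed by 1.42 and by 2.14, beside −3.07 at 52 weeks. After diethylnitrosamine it read 10.97, 9.25 and 6.82 in the livers labelled control and 11.18, 10.12 and 10.0 in the JNK knockouts, so that the groups overlapped. Its departure was −4.85 with liver 3 and −4.96 without it. Cyp2s1 (departure 3.16), Slc51b (4.3) and Adgrg7 (3.38) departed upward and Raet1e (−4.48), Hsd3b2 (−3.92) and Keg1 (−3.8) downward in every setting. The departures of Sftpd (1.82), Ighv1-72 (2.5), Serpina12 (−1.51) and Serpina4-ps1 (−2.84) were not called, which does not show that their differences were alike. Without liver 3 of the treated JNK knockouts those of Ighv1-72 (2.72, adjusted p = 0.0402) and Serpina4-ps1 (−3.78, 0.0189) were called. The 10 clock genes called at 52 weeks also departed, with and without that liver.

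**Figure D5:**
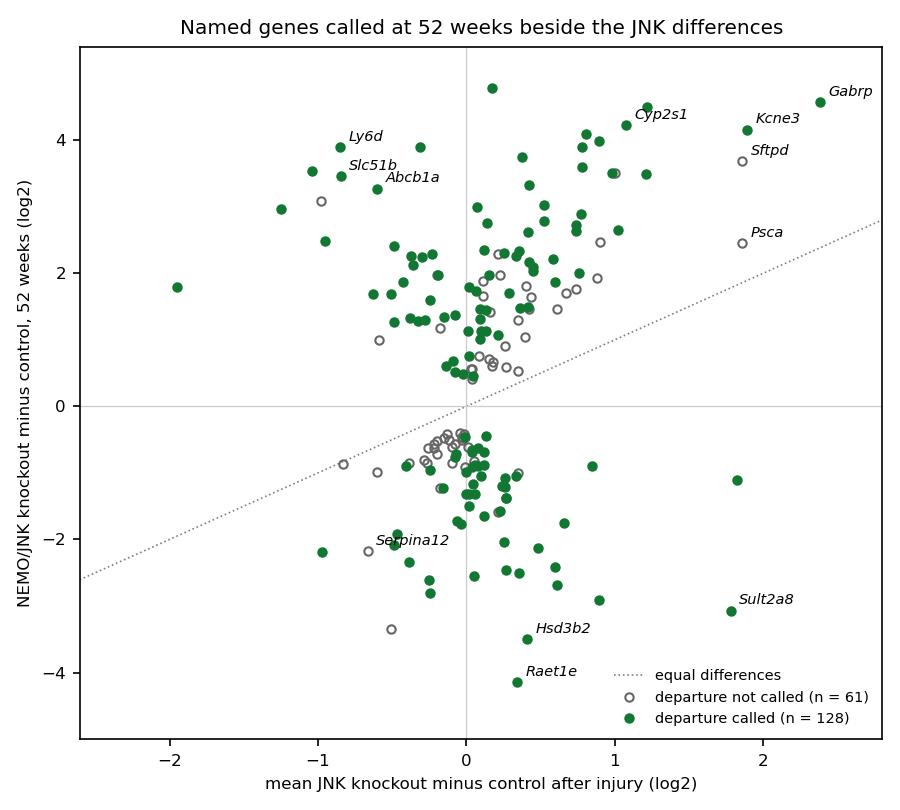
Log2 difference between NEMO/JNK knockout livers and livers labelled control at 52 weeks (vertical axis) against the mean JNK knockout difference after diethylnitrosamine and bile duct ligation (horizontal axis), for the 189 named genes called at 52 weeks, with 3 livers in each group. Filled points (128) are genes whose departure was called, open points (61) are those where it was not, and the dotted line marks equal differences. Ly6d, Slc51b and Abcb1a lie left of 0 and high, and Sult2a8 lies right of 0 and low.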

How the data were processed

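Total RNA of whole liver, 1 mouse per sample, was labelled by a whole-transcript assay and measured on single-colour arrays; the labels' protocols required an RNA integrity number above 8. The deposited table holds log2 values that the authors made with RMA, per the submitters' processing notes; the sources used here name neither the program nor the probe set definitions. Of 35556 probe sets, 21218 had 1 symbol, 1881 several and 12457 none, and 21185 of the first matched RefSeq. Where a gene had several probe sets (1386 genes), the one with the highest mean over 24 arrays stood for it, which left 18820 genes. Over all 35556 probe sets the medians of the 6 arrays lay between 4.52 and 4.66. The centred setting used other medians, those over the 18820 genes, and moved the median difference from −0.05 to −0.37. With so few arrays, their number sets the precision.

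The fit used limma 3.58.1 in R 4.3.3 (lmFit and eBayes) on the 6 livers, with Benjamini-Hochberg adjustment over all genes and no fold threshold. The contrast with the JNK differences was fitted on 18 livers. Labels give each liver a separate mouse; p-values measure the spread between these mice. Named genes were the 3 targets, the 15 largest rises and falls with a call and no overlap between groups, and in each list the 3 called members with the smallest p and the one with the largest difference each way; others are said to be chosen after their values were seen. The members and lists were chosen with earlier results of these data known. On simulated data with 200 of 18820 genes changed, the 52-week fit recovered 68% at a log2 change of 1 and 93% at 2, and the contrast 67% and 96%. In the real data many more genes were called (21.5% in the 52-week fit). The simulated rates therefore do not carry over to the reported fits. Alternatives left out each liver, changed the scaling, filtered dim genes, averaged probe sets, fitted all 24 arrays or added the replicate number as a block. Same-numbered livers did not deviate together, so the numbers were not used as pairs. A result for 1 gene list is not reported here.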

Additional observations from a re-analysis of the deposited data

Results flagged for a closer look

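The 52-week difference departed from the mean JNK difference after diethylnitrosamine and bile duct ligation for 1504 genes upward and 841 downward, by a limma test of the difference between the comparisons. Without liver 3 of the JNK knockouts given diethylnitrosamine, whose Xist read 10.38, the counts were 1373 and 719. Among the largest rises the departure (log2) was 3.28 for Igkv10-96, 3.16 for Cyp2s1, 2.27 for Kcne3, 3.28 for Tmem45b, 3.09 for Plet1, 4.75 for Ly6d and 4.21 for Gldn. It was 3.11 for Igkc, 3.38 for Adgrg7, 2.8 for a further kappa variable segment, 2.51 for Ighm, 2.29 for Lgals2 and 4.3 for Slc51b. Among the largest falls it was −4.48 for Raet1e, −3.92 for Hsd3b2, −4.85 for Sult2a8, −3.8 for Keg1, −2.56 for Slc17a8, −3.31 for Ces3a and −2.36 for Acss3. It was −2.6 for Ces1e, −2.86 for Slc15a5, −2.72 for Car3, −3.02 for Cyp8b1, −1.95 for Them7 and −1.22 for Lrat. The departures of Igkv10-96, Kcne3, Tmem45b, Plet1, Gldn, Igkc, that further segment, Ighm, Car3, Cyp8b1 and Lrat each lost their call in at least 1 alternative.

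Signal differences were also found in probe sets that the gene comparison did not use. They were fitted and adjusted apart from the genes. Of the 1881 probe sets with several symbols 61 were higher and 21 lower in the knockouts. Of the 12457 with no symbol 78 were higher and 36 lower. These shares are well below the 13.6% and 7.9% of all genes.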

How the results depend on the processing

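With 3 livers a group, counts of calls changed between settings. Of the 189 named genes called, 137 were called in all 12 alternatives. The named genes were mostly picked by their values in these data, so that this share does not describe all called genes. With each array centred on its median, genes higher numbered 1570 and lower 8942. In that setting lower members were 39 for amino acid catabolism, 21 for methionine and one-carbon, 22 for retinoids, 24 for steroids, 38 for oxidoreductases, 72 for the respiratory chain and 152 for solute carriers. Higher members there were 12 for cadherins, 4 for lysosome and 0 for ribosomal proteins, and departures were 867 upward and 3165 downward. Quantile normalisation gave 2417 genes lower and 31 ribosomal proteins higher. Filtering dim genes left higher 6 Wnt and Hedgehog, 12 axon guidance, 10 cadherin, 10 glycan, 18 ion channel, 4 kinesin and dynein and 9 water transport members. Fitting all 24 arrays gave 11 cadherin, 7 eicosanoid and 8 lysosome members higher and 4 methionine members lower. Against the JNK difference after diethylnitrosamine alone, 653 genes departed upward and 295 downward.

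Leaving out 1 liver gave 898 to 1586 genes lower and 1795 to 2327 higher, 1001 to 2317 departing upward and 471 to 1363 downward. Lower members ranged from 3 to 11 for methionine, 11 to 37 for the respiratory chain and 22 to 36 for solute carriers. Higher members ranged from 4 to 9 for ribosomal proteins, 6 to 12 for lysosome, 12 to 17 for cadherins and 7 to 12 for eicosanoids. The livers left out of the JNK groups were chosen as alternatives after seeing the data. The replicate block gave 2415 genes higher and 1321 lower, and 6 ribosomal proteins higher. The deviations of same-numbered livers correlated at 0.021, 0.035 and 0.017, so that they share only a number. The cause of these changes was not tested.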
